A study of Mus musculus with 6 samples.

Results

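The endoplasmic reticulum unfolded protein response was described here through 38 genes, chosen by symbol: the lumenal chaperones and folding enzymes, the degradation machinery, the stress sensors and their transcription factors, and the translocation and export proteins. A probe set counted for a gene when the array annotation mapped it to that symbol alone. All 38 genes were on the array, read by 93 of 34958 probe sets with 1 symbol, out of 18194 genes in all. The arrays were Affymetrix Mouse Genome 430 2.0 arrays of colon and liver from male C57BL6/J mice, 7 weeks old. The control mice (CON) ate the basal diet and drank water. The DSS mice drank water for 7 days and then 1.5% dextran sulfate sodium, a polymer used to induce colitis by damage to the epithelium of the colon, for 10 days by the treatment protocol. The DSSPAR mice received the diet with 2% parsley (PAR) throughout and, after the same 7 days of water, drank the polymer at 1.5%, for 9 days by their protocol. The growth protocol also gives 9 days, in words that follow the DSSPAR group, and leaves the duration in the DSS group unclear. The diet, and by the treatment protocols 1 day of exposure, thus differed between DSSPAR and DSS, and parsley was not given without the polymer. Each array held RNA pooled from 7 mice, and each group had 1 array per tissue. Every ratio thus compares a pair of pools, is without replicates and has no p-value.

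Proteins that enter the secretory pathway fold in the lumen of the endoplasmic reticulum with the help of chaperones, disulphide isomerases and lectins. When unfolded proteins build up there, the membrane sensors IRE1 (encoded by Ern1), PERK (Eif2ak3) and ATF6 become active. IRE1 splices the Xbp1 mRNA, ATF6 is cut to release a transcription factor, and PERK slows translation and favours that of ATF4. Their targets enlarge the folding and degradation capacity, and prolonged PERK signalling raises CHOP (Ddit3). Goblet cells, plasma cells and hepatocytes secrete large amounts of protein and depend on this pathway. An expression array reads total mRNA, so neither Xbp1 splicing nor the cleavage or phosphorylation of the sensors was measured.

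The promoters of these genes share sequence elements, shown here because the members are described below with and without them. ATF6 and XBP1 act through the ER stress response element (ERSE), in which CCAAT and CCACG are parted by 9 bases of any kind, and its shorter form ERSE-II, in which ATTGG and CCACG are parted by 1 base. RefSeq promoters of build GRCm38.p6, running from 250 bases before to 50 bases after the start site, were found for 31 of the 38 members, and both strands were searched. The ERSE occurred in 9 of the 31 promoters (29.0%), against 37 of 27025 promoters in the table (0.137%). ERSE-II occurred in 2 of the 31, Dnajb11 and Herpud1, against 12 of all promoters (0.0444%). Either form was present in 11 of 31 members (35.5%) and in 49 of all promoters (0.181%), and no member held both forms. The shorter letters TGACGTGG, another XBP1 and ATF6 site, were found in 1 member, Sec24d, and in 0.714% of all promoters. The ATF4 element TGATGNAA was found in 3 members, Herpud1, Trib3 and Chac1 (9.68%), against 4.51% of all promoters. A match describes the reference sequence and is not a measured binding site.

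The windows below carry the ERSE of 6 members that encode chaperones, folding enzymes or a degradation factor, with the element in capitals and each sequence given 5′ to 3′ on the gene's own strand. Capitals that begin with CGTGG are the element on the opposite strand. They lie, on the plus strand unless stated, at chr2:34772010-34772058 for Hspa5, chr10:86705518-86705566 (minus strand) for the nearer of the 2 sites of Hsp90b1, chr15:88819505-88819553 for Creld2, chr12:17266476-17266524 for Pdia6, chr8:84847060-84847108 (minus strand) for Calr and chr10:75893227-75893275 for Derl3. The other ERSE promoters were those of Dnajc3, Canx and Syvn1.
Hspa5: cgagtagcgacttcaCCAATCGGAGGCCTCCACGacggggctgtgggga
Hsp90b1: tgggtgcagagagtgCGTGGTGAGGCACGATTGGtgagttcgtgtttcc
Creld2: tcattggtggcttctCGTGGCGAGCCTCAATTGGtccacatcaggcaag
Pdia6: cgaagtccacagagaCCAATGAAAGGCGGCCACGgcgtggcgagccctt
Calr: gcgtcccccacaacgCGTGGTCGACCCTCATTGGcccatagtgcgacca
Derl3: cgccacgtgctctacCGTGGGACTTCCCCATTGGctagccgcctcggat

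The ERSE-II of Herpud1 lies before its start site at chr8:94386362-94386402, and that of Dnajb11 just after the start site, at chr16:22857844-22857870. The ATF4 elements of Chac1 (chr2:119351034-119351071) and Trib3 (chr2:152344031-152344054, minus strand, after the start site) are shown with them, since Trib3 and Chac1 are ATF4 and CHOP targets. Both of these stand on the opposite strand.
Herpud1: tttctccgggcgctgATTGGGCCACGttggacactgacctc
Dnajb11: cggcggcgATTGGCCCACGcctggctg
Chac1: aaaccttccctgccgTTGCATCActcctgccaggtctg
Trib3: gctcaggtTTACATCAgccgggcg

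Sdf2l1, at least 2-fold higher in DSS than in CON in both tissues, had none of the 4 motifs in its window. Its 250 bases before the start site (chr16:17132384-17132633, minus strand) are given in full. They say only that these letters are not in this stretch.
Sdf2l1: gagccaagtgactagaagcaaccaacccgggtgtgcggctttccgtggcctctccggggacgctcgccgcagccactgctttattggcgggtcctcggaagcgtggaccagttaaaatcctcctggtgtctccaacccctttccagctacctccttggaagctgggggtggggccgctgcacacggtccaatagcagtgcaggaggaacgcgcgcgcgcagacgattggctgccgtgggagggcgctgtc

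Intensities are the deposited MAS5 values, linear and without a unit. The tissues were scaled apart, with a trimmed mean of 106 to 111 in colon and 500.0 in liver, so a level in colon is not set against one in liver. A floor was placed at the median of all intensities on the 3 arrays of 1 tissue, 25.1 in colon and 96.6 in liver. A comparison took in a gene only where 1 or both of its 2 arrays exceeded that floor, and a lower value was raised to it. The brightest probe set stood for a gene, and 27 of the 38 members had several. As a yardstick, the log2 ratios of the 2 brightest probe sets of a gene differed with a robust standard deviation of 0.34 to 0.40 in colon and 0.42 to 0.51 in liver over all genes. This covers differences between probe sets but not between mice, pools or arrays. In colon, 10 of 10 absorptive colonocyte and 10 of 10 goblet cell markers lay above the floor on each array, and in liver 9 of 9 hepatocyte markers did. In these whole-tissue samples, fewer cells of a type and less RNA per cell cannot be told apart.

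**Figure D1:**
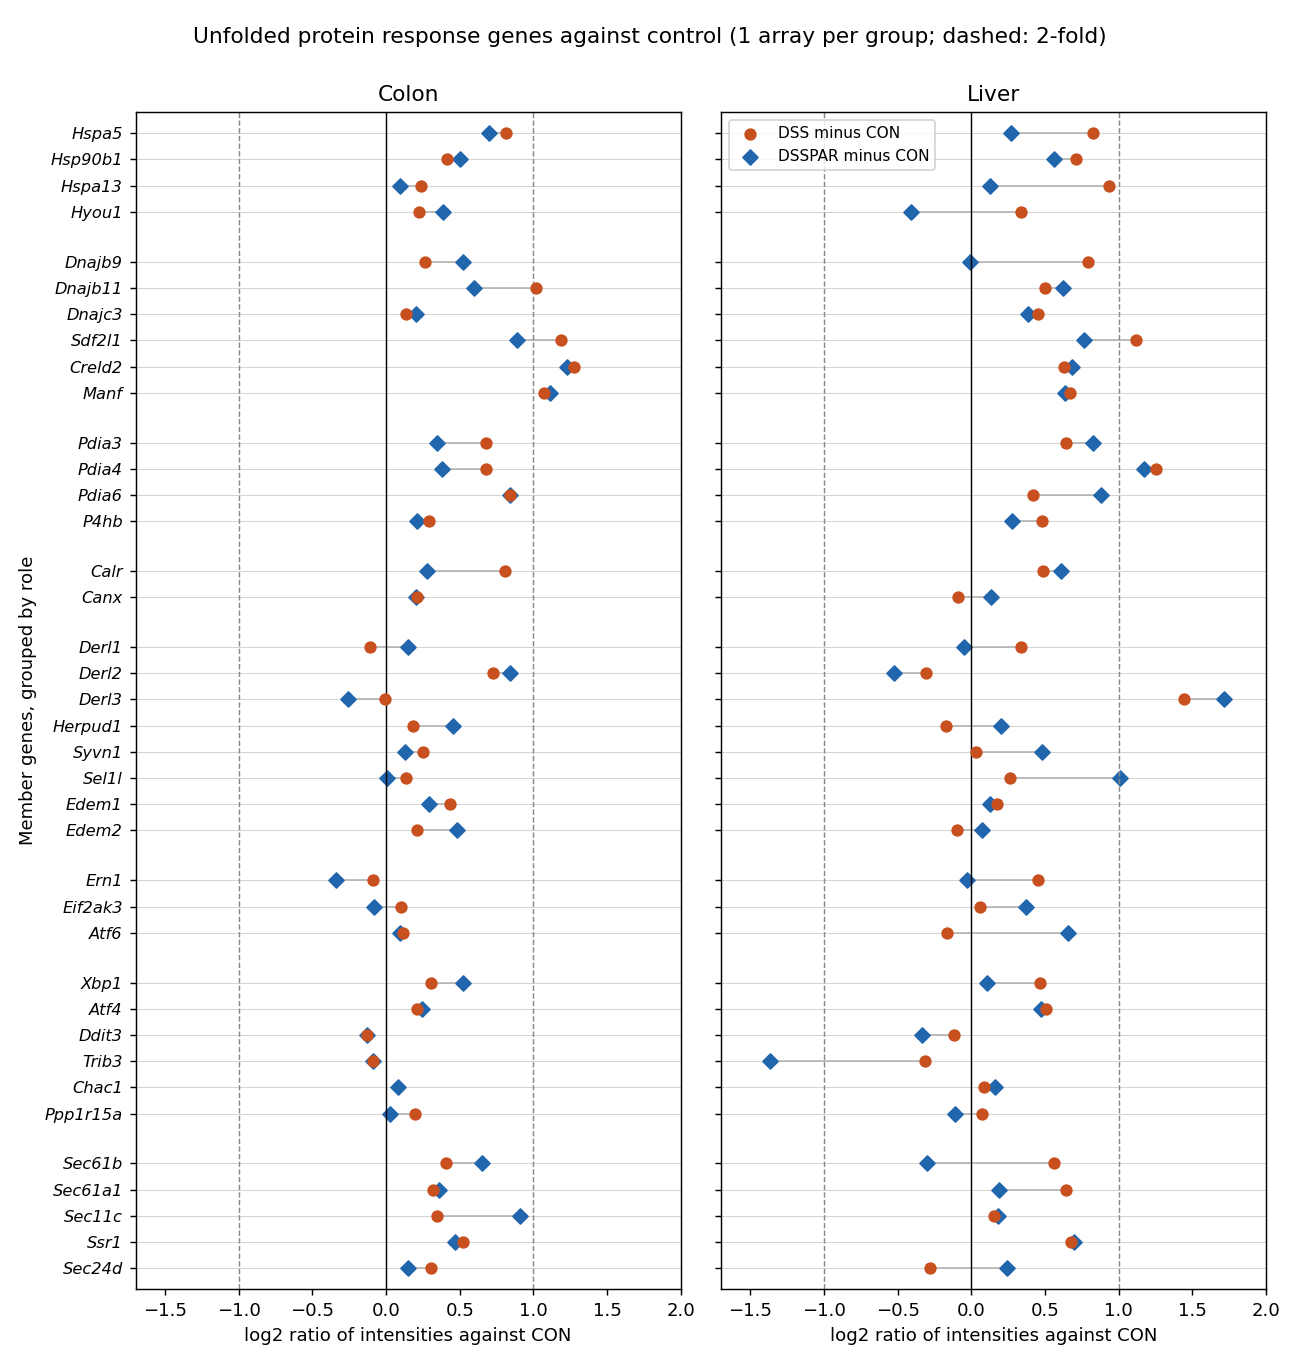
Log2 ratio of intensities of each member against CON, in colon and liver, for DSS (circles) and DSSPAR (diamonds), grouped by role, 1 array per group, with dashed lines at 2-fold. In colon 32 of 37 members lay above CON in DSS, with Creld2 farthest at 1.28. In liver Derl3 lay farthest above CON and Trib3 farthest below it in DSSPAR.

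In colon, folding genes were higher in DSS than in CON while the sensors lay close to CON. Of 37 measured members, 4 were at least 2-fold higher (10.8%), where 5.18% of 11952 genes were, and 0 were at least 2-fold lower (1.97% of all genes). With quantile normalization 2 members, Creld2 and Sdf2l1, were past 2-fold, where 5.27% of genes were, so the 2-fold count is then near the background. At 1.5-fold, 10 members were higher (27.0%, against 12.8% of genes) and 0 lower (7.75% of genes). The members' median log2 ratio was 0.29, against 0.04 over all genes, and 32 members lay above CON and 5 below.

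All 4 members past 2-fold in the colon were J proteins or chaperone cofactors, which deliver clients to the lumenal chaperone BiP or assist it. Creld2, a secreted cofactor with isomerase activity, read 154 in CON, 374 in DSS and 362 in DSSPAR, 2.42-fold higher in DSS. Sdf2l1, which works in a complex with a J protein, read 153, 348 and 283 in the same order, 2.27-fold higher in DSS. Manf, a secreted protein that binds BiP, read 639.7, 1347 and 1386, 2.10-fold higher in DSS (log2 ratio 0.98 with quantile normalization). For each of these 3 the DSS and DSSPAR arrays were both well above CON. Dnajb11 (ERdj3), a lumenal J protein, read 289 in CON, 585 in DSS and 437 in DSSPAR, 2.03-fold higher in DSS (log2 ratio 0.96 with quantile normalization) and with DSSPAR between the others. These 4 genes are each read by a single probe set. The other J proteins were nearer to CON: the log2 ratio was 0.27 for Dnajb9 (ERdj4) and 0.14 for Dnajc3 (P58IPK).

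**Figure D2:**
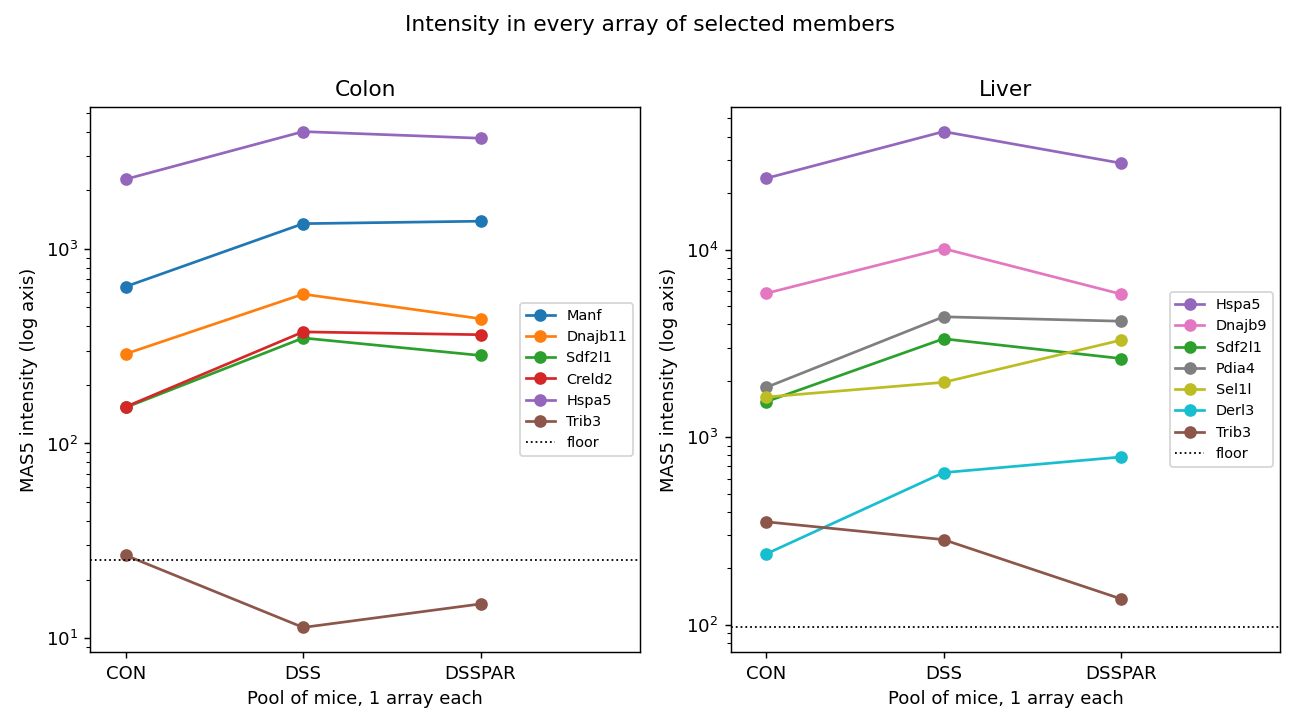
Intensity (log axis) on each of the 3 arrays of a tissue for members past 2-fold in a comparison, Hspa5, Trib3 and liver Dnajb9, 1 line per gene and 1 array per point, with the floor dotted. Colon Creld2 and Manf were high on both polymer arrays. Liver Hspa5 was high on the DSS array and Trib3 low on the DSSPAR array.

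Hspa5, which encodes BiP, the HSP70 chaperone that also holds the sensors inactive, was the highest of the 4 lumenal HSP70 and HSP90 genes against CON. It read 2278 in CON, 4001 in DSS and 3698 in DSSPAR, 1.76-fold higher in DSS. Of its 3 probe sets, 1 pointed the other way, with a log2 ratio of -0.15. Hsp90b1, the lumenal HSP90 (GRP94), was 1.33-fold higher in DSS, Hspa13 1.18-fold and Hyou1, the nucleotide exchange factor of BiP, 1.17-fold.

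The 4 disulphide isomerases were all above CON in DSS, with a median log2 ratio of 0.68. Pdia6 read 452, 809.9 and 807 in CON, DSS and DSSPAR, 1.79-fold higher in DSS, with both polymer arrays alike. Pdia3, the isomerase that works with the lectin chaperones, and Pdia4 were each 1.60-fold higher. P4hb, the isomerase that also serves prolyl hydroxylase, was 1.22-fold higher. Of the 2 lectin chaperones, which hold glycoproteins during folding, the soluble Calr read 2008 in CON, 3509 in DSS and 2435 in DSSPAR, 1.75-fold higher in DSS with all 3 probe sets above CON. The membrane-bound Canx was 1.16-fold higher.

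Among the 8 genes of ER-associated degradation, which returns misfolded proteins to the cytosol, only Derl2 passed 1.5-fold in colon DSS. This derlin of the retrotranslocation complex read 388, 641 and 695 in CON, DSS and DSSPAR, 1.65-fold higher in DSS. Edem1, a mannosidase-like factor that marks glycoproteins for disposal, was 1.35-fold higher. Herpud1, Syvn1 (the ubiquitin ligase HRD1), its partner Sel1l and Edem2 had log2 ratios of 0.13 to 0.25. Derl1 (-0.11) and Derl3 (-0.01) were at or under CON, and 3 of the 4 probe sets of Derl1 lay on the other side.

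By their brightest probe sets, the sensors and the factors that act after them were near CON. The log2 ratio of DSS against CON was 0.12 for Atf6, 0.10 for Eif2ak3 and -0.09 for Ern1, all inside the spread between probe sets. Atf6, the highest of the 3, read 207, 224 and 221 in CON, DSS and DSSPAR. Its other probe sets stood at 0.72 and -0.70 in DSS against CON. Xbp1 read 2592, 3201 and 3726, 1.23-fold higher in DSS, with 3 of its 4 probe sets above CON. Atf4 was 1.16-fold higher, and Ppp1r15a (GADD34), the phosphatase subunit that restores translation, 1.15-fold higher. Ddit3, encoding CHOP, was slightly lower, with a log2 ratio of -0.13. Its dimmer probe set was lower, at -0.58 in DSS and -0.95 in DSSPAR against CON.

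The CHOP and ATF4 targets Trib3 and Chac1 were at or near the floor in colon. Trib3, a pseudokinase, read 26.7 in CON, 11.4 in DSS and 15.0 in DSSPAR. Chac1, a glutathione-degrading enzyme, read 6.73, 24.5 and 26.5 in the same order, so it was not measured in DSS against CON. No fold is drawn from either, but their ratios cut at the floor are part of the counts and medians of the members. These were -0.09 for Trib3 against CON, in DSS and in DSSPAR. For Chac1 in DSSPAR the ratio was 0.08 against CON and against DSS.

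The 5 translocation and export genes, which carry proteins into and out of the endoplasmic reticulum, were all above CON in colon DSS by less than 1.5-fold. Ssr1, a subunit of the translocon-associated complex, was the highest, at 766 in CON, 1099 in DSS and 1059 in DSSPAR, 1.43-fold higher in DSS. Its 4 probe sets did not share a side: 2 lay below CON and the highest reached 1.06. The translocon subunits Sec61b and Sec61a1 were 1.33-fold and 1.25-fold higher, Sec11c of the signal peptidase 1.27-fold and the export coat gene Sec24d 1.23-fold.

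Marker sums of cell types also differed between the colon arrays. The summed intensity of 9 macrophage markers was 2057 in CON, 7223 in DSS and 6690 in DSSPAR, and that of 7 fibroblast markers 5536, 10615 and 8007. The goblet cell markers summed to 36689, 40745 and 46634, the 9 plasma cell markers to 2934, 2658 and 3664, and the colonocyte markers to 35695, 33443 and 36170. The last 2 sums were lower in DSS than in CON, but most single markers were not. Of the 5 measured plasma cell markers 3 lay above CON and 2 below, with a median log2 ratio of 0.44. Of the 10 colonocyte markers 6 lay above and 4 below, with a median of 0.15. Exocrine pancreas genes, markers of a tissue with abundant endoplasmic reticulum, were above the floor for 3 of 12 genes in CON, 10 in DSS and 3 in DSSPAR, with sums of 2792, 4421 and 2266 that were led by Cela1. In DSS against CON, 8 of the 10 measured pancreas genes were at least 2-fold higher, with a median log2 ratio of 3.10 and a highest of 4.53, and in DSSPAR against DSS the same number were at least 2-fold lower, with a median of -3.10. The defining factors Ptf1a and Rbpjl were under the floor on all 3 arrays. Against CON in DSSPAR, 0 of 3 measured pancreas genes were at least 1.5-fold higher, and the log2 ratio there was 1.23 for Creld2, 1.12 for Manf, 0.84 for Pdia6 and 0.84 for Derl2. Dnajb11, Sdf2l1, Calr, Pdia3 and Pdia4 were lower in DSSPAR than in DSS. The part of any of these marker lists in the colon results was not tested.

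In colon, the members lay near their DSS level in DSSPAR by their brightest probe sets. Of 37 measured members, 0 were at least 2-fold higher in DSSPAR than in DSS (0.392% of 11730 genes) and 0 lower (1.24% of genes). At 1.5-fold both counts were again 0, where 3.21% of genes were higher and 6.1% lower. Some dimmer probe sets did pass 1.5-fold. The other probe set of Hsp90b1 read 861 in CON, 1499 in DSS and 781 in DSSPAR, at -0.94 against DSS. Dimmer probe sets of Atf6, Sel1l and Sec61a1 lay at -0.81, -0.77 and -0.74, and that of Hspa5 lay higher, at 0.65. By the brightest probe sets the median log2 ratio was -0.02, as over all genes at -0.01, with 16 members above DSS and 21 below. This median changed sign with the scaling, to 0.18 with each array centred on its median and to 0.07 with centring on probe sets above the floor. Calr was the farthest below DSS, at 1.44-fold lower by its brightest probe set, followed by Dnajb11 at 1.34-fold. All 3 probe sets of Calr lay on that side, but the dimmer ones only at -0.07 and -0.11. Sec11c was the farthest above, at 1.48-fold, with its other probe set on the other side. All 4 disulphide isomerases and both lectin chaperones lay below DSS, by a median of -0.19 and -0.27. Of these only Calr, at -0.53, lay past the spread of 0.34 between probe sets, and its dimmer probe sets did not. Pdia6, Canx and P4hb stood at -0.005, -0.008 and -0.08, while the medians of the 2 arrays differed by -0.20.

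DSSPAR against CON shares an array with each of the colon comparisons above, so its values are given beside theirs and add no independent measurement. Here 2 of 38 members were at least 2-fold higher (3.51% of 11808 genes), Creld2 at 2.35-fold and Manf at 2.17-fold, and 0 were lower (2.1% of genes). At 1.5-fold 9 were higher (11.3% of genes) and 0 lower (8.37% of genes): Hspa5, Dnajb11, Sdf2l1, Creld2, Manf, Pdia6, Derl2, Sec61b and Sec11c. The median was 0.32, against 0.03 over all genes. Of the 10 members at least 1.5-fold above CON in DSS, 7 were so in DSSPAR as well. Calr, Pdia3 and Pdia4 were not, at log2 ratios of 0.28, 0.35 and 0.38. The matching share over all genes was not worked out, and both ratios use the same CON array. The count at 2-fold was 6 with arrays centred on their medians, a scaling that moves DSSPAR against CON by 0.28 on the log2 scale and puts 7.50% of all genes past 2-fold higher. With quantile normalization it was 1, Creld2, and Manf lay at 0.92.

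In liver, folding and chaperone genes were also higher in DSS than in CON, with Derl3, Pdia4 and Sdf2l1 in the lead. Of 38 measured members, 3 were at least 2-fold higher (4.73% of 13034 genes) and 0 lower (4.2% of genes), so the 2-fold count is close to the background. At 1.5-fold, 12 were higher (31.6%), against 14.2% of genes, and 0 lower, against 14.9%. The median log2 ratio was 0.45, against -0.02 over all genes, and 30 members lay above CON and 8 below.

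Derl3, a derlin of secretory cells, was the farthest above CON in liver, at 238 in CON, 646 in DSS and 783 in DSSPAR, 2.71-fold higher in DSS. With the floor at the 75th percentile the log2 ratio was 0.82 in place of 1.44. Pdia4 read 1840.1 in CON, 4379 in DSS and 4148 in DSSPAR, 2.38-fold higher in DSS. Its dimmer probe set gave 0.59 and the mean of both 0.92, under 2-fold. Sdf2l1 read 1544, 3342 and 2624, 2.17-fold higher in DSS. In all 3 genes both polymer arrays stood above CON.

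The HSP70 and HSP90 chaperones of liver were highest on the DSS array. Hspa5 read 23962 in CON, 42546 in DSS and 28876 in DSSPAR, 1.78-fold higher in DSS with all 3 probe sets above CON. Hsp90b1 read 20890, 34163 and 30764, 1.64-fold higher. Hspa13, a lumenal HSP70 relative, read 2451, 4688 and 2673, 1.91-fold higher, though 1 of its 4 probe sets stood at -0.41. Hyou1 was 1.26-fold higher. For Hspa5 and Hspa13 the DSSPAR array was much nearer to CON than to DSS by the brightest probe set. Of the other probe sets of Hspa5, 1 lay nearer to DSS, at 0.46 against CON and -0.34 against DSS. Its dimmest lay below CON in DSSPAR, at -0.45, and at -0.76 against DSS. The Hspa13 probe set at -0.41 also lay nearer to DSS in DSSPAR, at -0.10 against DSS and -0.51 against CON.

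Of the J proteins and cofactors, all 6 lay above CON in liver DSS, with a median log2 ratio of 0.65. Dnajb9, an IRE1 and XBP1 target, read 5840 in CON, 10117 in DSS and 5789 in DSSPAR, 1.73-fold higher in DSS and at the CON level in DSSPAR. Manf was 1.59-fold higher, Creld2 1.55-fold, Dnajb11 1.41-fold and Dnajc3 1.37-fold, the last with 5 of 5 probe sets above CON. Beside Pdia4, Pdia3 was 1.56-fold higher, P4hb 1.39-fold and Pdia6 1.34-fold. The lectin chaperones differed from each other: Calr read 15161, 21199 and 23064 in CON, DSS and DSSPAR, 1.40-fold higher in DSS, and Canx had a log2 ratio of -0.09.

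Apart from Derl3, the degradation genes of liver lay within 1.5-fold of CON in DSS by their brightest probe sets. Derl2 was lower, at a log2 ratio of -0.31 with both probe sets below CON, and Herpud1 lay at -0.17 with both below. The dimmer probe sets stood at -0.73 for Derl2 and -0.74 for Herpud1. Derl1 (0.34), Sel1l (0.26), Edem1 (0.17), Syvn1 (0.03) and Edem2 (-0.10) complete the group. Probe sets disagreed for several of these. Only 2 of the 5 of Sel1l lay above CON, and its lowest stood at -1.15. For Derl1 2 of 4 lay above CON, with the lowest at -0.48. The dimmer probe sets of Syvn1 and Edem1 stood at -0.42 and -0.07. Of the sensors, Ern1 was the farthest from CON, at 2164 in CON, 2964 in DSS and 2119 in DSSPAR, 1.37-fold higher in DSS with all 3 measured probe sets above CON. Eif2ak3 lay at 0.06 and Atf6 at -0.16, with 1 of the 3 probe sets of Atf6 at 0.65.

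Atf4 and Xbp1 were the highest of the transcription factors in liver. Atf4 read 2327 in CON, 3312 in DSS and 3231 in DSSPAR, 1.42-fold higher in DSS. Xbp1 read 30799, 42522 and 33143, 1.38-fold higher with 4 of 4 probe sets above CON. The factors of the CHOP branch were near or below CON: the log2 ratio was 0.09 for Chac1, 0.07 for Ppp1r15a, -0.12 for Ddit3 and -0.32 for Trib3. Both probe sets of Trib3 lay below CON, the dimmer at -0.37. Of the translocation and export genes, Ssr1 read 4197, 6690 and 6796 in CON, DSS and DSSPAR, 1.59-fold higher in DSS with all 4 probe sets above CON. Sec61a1 was 1.56-fold higher, with 1 of its 6 probe sets at -0.83, and Sec61b 1.48-fold. Sec11c was 1.11-fold higher and Sec24d, at -0.28, lower.

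Marker sums also differed between the liver arrays. The hepatocyte markers summed to 594886 in CON, 775087 in DSS and 501180 in DSSPAR, highest on the DSS array like Hspa5 and Hsp90b1. The macrophage markers summed to 19190 (CON), 36778 (DSS) and 33632 (DSSPAR), with 8 of 9 above the floor on each array, and the fibroblast markers to 13153, 20252 and 14552. The plasma cell markers summed to 2313, 1004 and 1229, but in DSS against CON 2 of the 5 measured lay above CON and 3 below, with log2 ratios from -3.12 to 1.39. The goblet cell markers summed to 2107, 10030 and 4660, nearly all of it Tff3, with 1 or 2 of 10 above the floor. The colonocyte markers summed to 8162, 2724 and 4790.1, most of it Aqp8, and the pancreas markers to 5385, 4608 and 2841. In DSS against CON 4 of the 7 measured pancreas markers lay above CON and 3 below, with a median log2 ratio of 0.43. The part of any of these marker lists in the liver results was not tested.

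In liver, members lay on both sides of DSS in DSSPAR. Of 38 members, 0 were at least 2-fold higher in DSSPAR than in DSS (2.8% of 12398 genes) and 1, Trib3, was lower (4.23% of genes). At 1.5-fold 2 were higher, against 12.8% of genes, and 5 lower, against 15% of genes, so neither count exceeds the background. The median log2 ratio was -0.04, against -0.02 over all genes, with 17 above and 21 below, and it became 0.12 with arrays centred on their medians.

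The members past 1.5-fold lower in DSSPAR against DSS came from several roles. Trib3 read 353 in CON, 284 in DSS and 137 in DSSPAR, 2.07-fold lower than in DSS, and its other probe set pointed the other way at 0.29. Sec61b read 16365, 24172 and 13257, 1.82-fold lower, the DSSPAR array being the lowest of the 3. Hspa13 and Dnajb9 were each 1.75-fold lower, and all 4 probe sets of Hspa13 shared the side. Hyou1 read 2332 in CON, 2946 in DSS and 1756 in DSSPAR, 1.68-fold lower. Hspa5 was 1.47-fold lower, with 3 of 3 probe sets on that side, and Ern1 1.40-fold, also with 3 of 3. All 4 lumenal HSP70 and HSP90 genes lay below DSS, with a median of -0.65.

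The 2 members at least 1.5-fold higher in liver DSSPAR than in DSS were Atf6 and Sel1l. Sel1l, the adaptor of the HRD1 ligase, read 1634 in CON, 1958 in DSS and 3287 in DSSPAR, 1.68-fold higher than in DSS with 5 of 5 probe sets on that side. Atf6 read 1027, 916 and 1618, 1.77-fold higher by its brightest probe set alone, with its other probe sets at 0.01 and -0.24. Syvn1 was 1.36-fold higher with both probe sets on that side and Herpud1 1.29-fold with both. Sec24d was 1.44-fold higher and Pdia6 1.38-fold, while Derl2 was 1.17-fold lower.

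Against CON, a comparison that shares arrays with the other liver ones, 3 of 38 members were at least 2-fold higher in DSSPAR (3.26% of 12721 genes) and 1 lower (3.45% of genes). Derl3 was 3.29-fold higher, Pdia4 2.25-fold and Sel1l 2.01-fold, and Trib3 was 2.57-fold lower. Sel1l was under 2-fold in 3 of 7 alternatives, down to a log2 ratio of 0.56 with the mean over probe sets. The other probe set of Trib3 lay at -0.08, and the mean of its probe sets gave -0.72. With arrays centred on their medians the counts were 7 higher and 1 lower, where 7.94% and 1.48% of all genes were. With quantile normalization they were 2 and 1, where 3.50% and 3.07% of genes were. At 1.5-fold 12 members were higher (11.2% of genes) and 1 lower (13.4% of genes). The median was 0.26, against -0.04 over all genes. Of the 12 members at least 1.5-fold above CON in DSS, 7 were so in DSSPAR: Sdf2l1, Creld2, Manf, Pdia3, Pdia4, Derl3 and Ssr1. The other 5, Hspa5, Hsp90b1, Hspa13, Dnajb9 and Sec61a1, had log2 ratios of -0.01 to 0.56. How many of all genes behaved likewise was not worked out, and both ratios again use the same CON array.

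**Figure D3:**
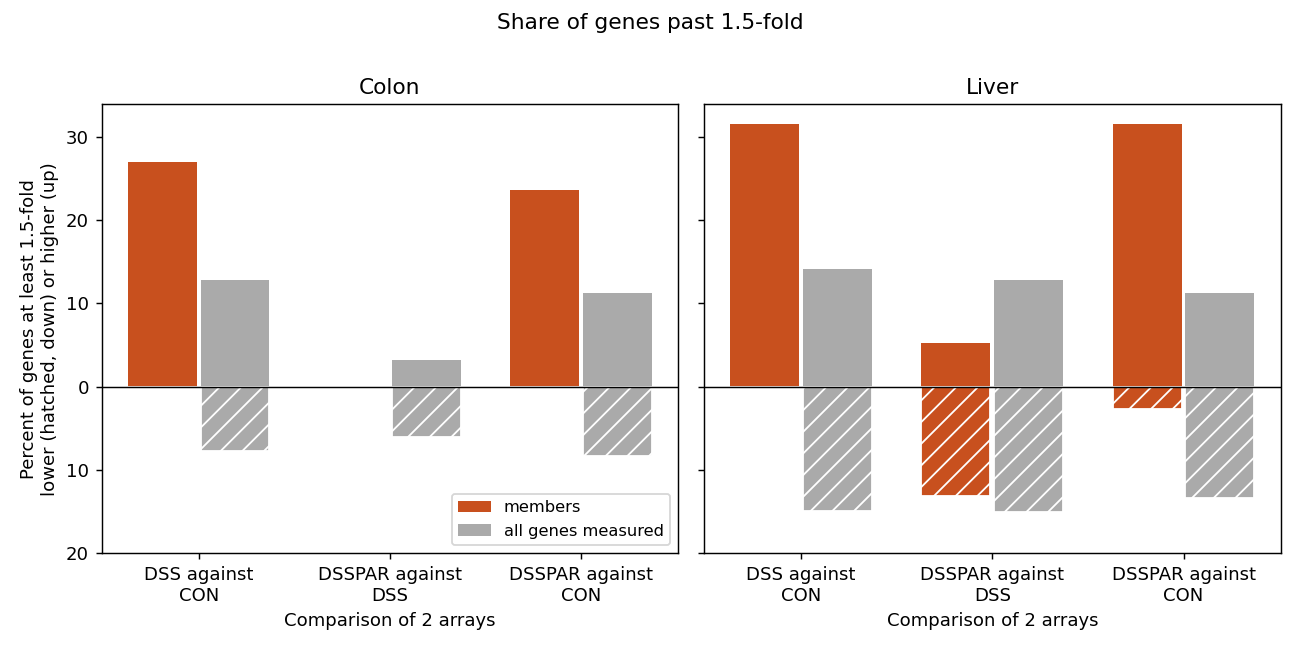
Share in percent of measured members (orange bars) and of all measured genes (grey bars) at least 1.5-fold higher (upward) or lower (hatched, downward), for the 3 comparisons of each tissue, from 1 array per group. The members exceeded all genes on the higher side for DSS against CON and DSSPAR against CON, with 27.0% against 12.8% in colon DSS. No member was at least 1.5-fold lower than CON in DSS in either tissue.

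**Figure D4:**
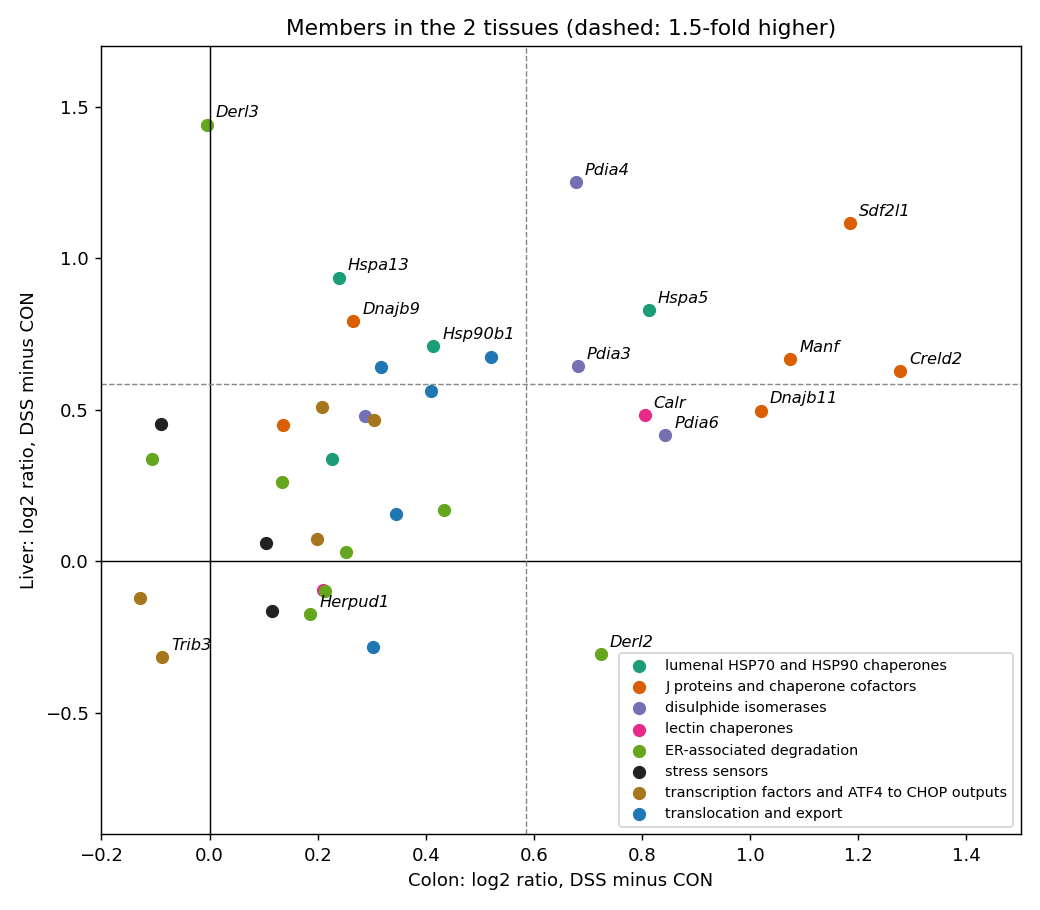
Log2 ratio of DSS against CON in colon (x axis) and in liver (y axis) for each member measured in both, coloured by role, 1 array per group, with dashed lines at 1.5-fold higher. Creld2, Hspa5, Manf, Pdia3, Pdia4 and Sdf2l1 lie past both lines, and Derl3 and Derl2 lie apart.

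The plot of colon against liver shows which members were high in both tissues. At least 1.5-fold above CON in DSS were 10 members in colon and 12 in liver, and 6 of them were shared, 60% of the colon list and 50% of the liver list. They are the chaperone Hspa5, the cofactors Creld2, Manf and Sdf2l1, and the isomerases Pdia3 and Pdia4. Over the 10766 genes measured in both tissues, 1320 were past 1.5-fold in colon and 1592 in liver, with 398 shared, 30.2% and 25% of the lists. The members also had the larger share past 1.5-fold in each tissue. It was 27.0% in colon and 31.6% in liver, against 12.8% and 14.2% of genes. Larger lists share more, so the percentages do not show an overlap beyond these shares, and this was not tested. Pdia6, Calr, Dnajb11 and Derl2 passed 1.5-fold in colon alone, and of these Derl2 lay below CON in liver. Derl3, Hspa13, Dnajb9, Hsp90b1, Sec61a1 and Ssr1 passed it in liver alone. Derl3 was at -0.01 in colon and 1.44 in liver, a difference between tissues that was not tested.

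**Figure D5:**
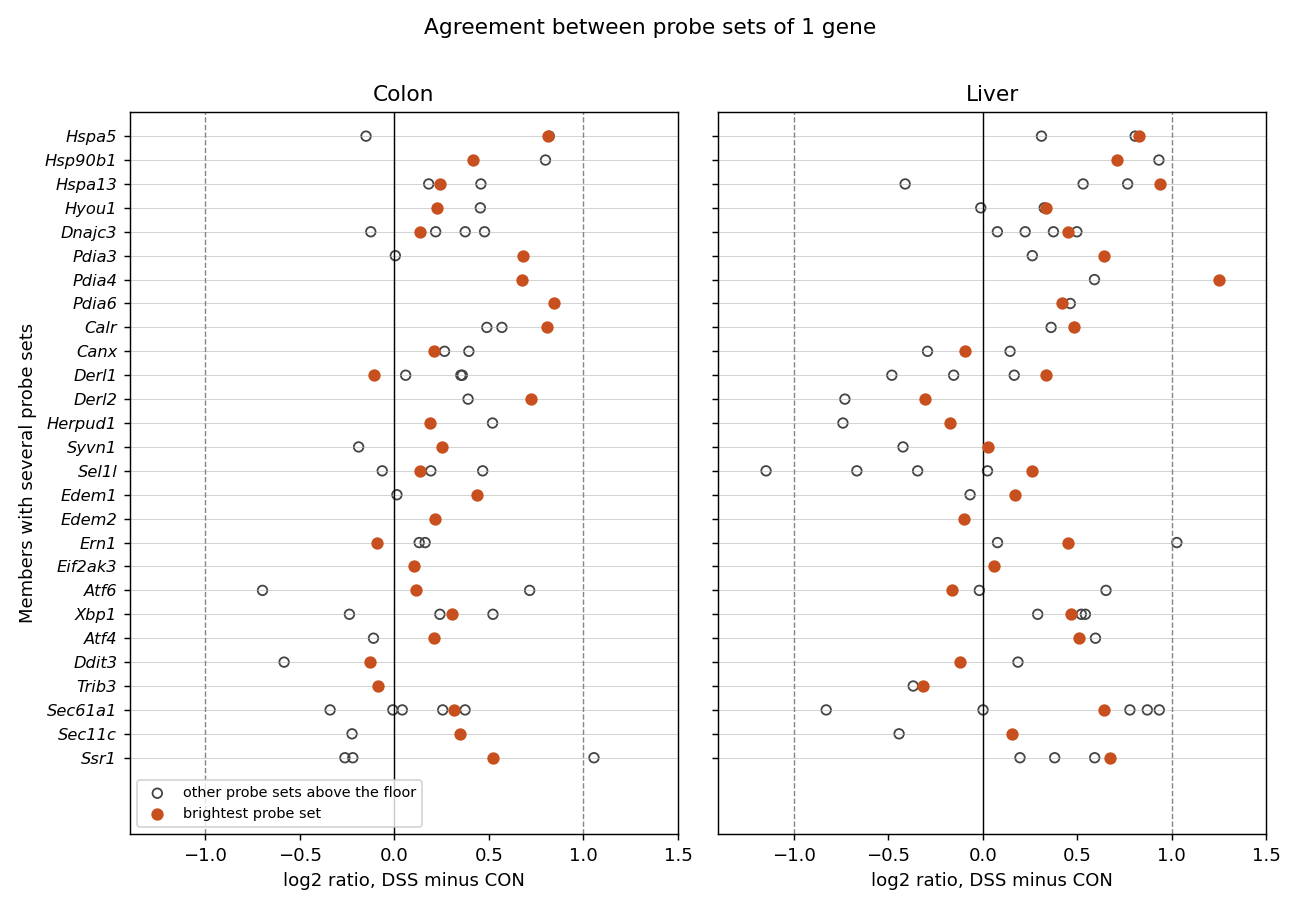
Log2 ratio of DSS against CON for each probe set of the members with several, in colon and liver, filled for the brightest probe set and open for the others above the floor, with dashed lines at 2-fold. In colon the probe sets of Calr lie together above CON, while those of Atf6 and Ssr1 fall on both sides.

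How far the probe sets of 1 member share a side bears on single values. Among members at least 1.5-fold above CON in colon DSS, 6 had 1 measured probe set. Of the 4 with several, 3 (Pdia3, Calr and Derl2) had all on 1 side, and Hspa5 did not. The dimmer probe set of Pdia3, just above the floor, stood at 0.005 and so showed no change. In liver DSS, 7 had several and 5 of these had all on 1 side, the exceptions being Hspa13 and Sec61a1. In liver DSSPAR against CON, 4 of 6 did, the exceptions being Atf6 and Ssr1.

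Members with an ERSE or ERSE-II were compared with members in the promoter table that had neither. In colon DSS, the 11 members with the element had a median log2 ratio of 0.41 against CON, with 10 of 11 above CON. The 19 measured members without it had a median of 0.29, with 16 above. In liver DSS the medians were 0.48 and 0.36. In liver DSSPAR the medians were 0.56 with the element, where 11 of 11 were above CON, and 0.14 without it, where 13 of 20 were. The ranges overlapped: in liver DSSPAR they ran from 0.14 to 1.72 with the element and from -1.36 to 1.17 without it. Of the 38 genes outside the members that carry the element, 12 were measured in colon DSS and 13 in liver DSS, with medians of 0.04 and -0.24.

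Other genes of the same pathway, 125 in 7 lists by function, were measured alongside. In colon DSS against CON, 5 of 119 were at least 2-fold higher and 0 lower, with a median of 0.20. This is 4.20% of them, under the 5.18% of all genes. They were Cebpb (3.36-fold) and Psat1 (3.21-fold) of the ATF4 and amino acid response, Creb3l3 (2.24-fold), a membrane-bound factor related to ATF6, Selenok (2.12-fold) of the degradation machinery and Krtcap2 (2.08-fold), a subunit of the oligosaccharyltransferase that adds glycans. Between DSSPAR and DSS in colon, 0 of 119 were at least 2-fold higher and 1 lower (0.840%, against 1.24% of all genes), the kinase Eif2ak2 at 2.05-fold. With centring on array medians or quantile normalization that count was 0. Against CON, Krtcap2, Creb3l3 and Psat1 were at least 2-fold higher in colon DSSPAR (2.54%, against 3.51% of all genes), at 2.38-fold, 2.37-fold and 2.06-fold.

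In liver DSS against CON, 8 of 118 of these genes were past 2-fold higher (6.78%, against 4.73% of all genes) and 4 past 2-fold lower (3.39%, against 4.2%), with a median of 0.19. With arrays centred on their medians the counts were 9 and 2. Nucb2, a calcium-binding protein, was 3.39-fold higher, Asns, the asparagine synthetase and an ATF4 target, 2.27-fold, Qsox1, a sulphydryl oxidase, 2.18-fold, Ppib, a lumenal prolyl isomerase, 2.14-fold and Creb3l2 2.13-fold. Aldh18a1, Nupr1 and Atf3, under the floor in CON, were at least 2.42-fold, 2.24-fold and 2.11-fold higher. The lower genes were Sec24b (2.40-fold), Rnf5 (2.23-fold), Shmt2 (2.10-fold) and Stc2 (at least 2.10-fold, under the floor in DSS).

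Between DSSPAR and DSS in liver, 3 of 116 of these genes were past 2-fold higher (2.59%, against 2.8% of all genes) and 1 past 2-fold lower (0.862%, against 4.23%). The export coat gene Sec24b was 3.25-fold higher, the segregase Vcp, which extracts proteins for degradation, 2.17-fold and Sil1, an exchange factor of BiP, 2.00-fold, and the peroxiredoxin Prdx4 was 2.14-fold lower. With arrays centred on their medians 6 were higher and 0 lower. Against CON, 9 of 118 were at least 2-fold higher (7.63%, against 3.26% of all genes) and 0 lower (3.45% of all genes), among them Nucb2 (4.54-fold), Qsox1 (2.76-fold), Asns (2.60-fold), Stt3a (2.29-fold) and Rpn2 (2.15-fold), the last 2 being subunits of the oligosaccharyltransferase.

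Heat shock genes whose proteins work outside the endoplasmic reticulum are given for comparison. In colon DSS 2 of 11 measured were at least 2-fold higher than CON (18.2%, against 5.18% of all genes), Hspe1 (2.23-fold) and Hspb1 (2.02-fold). All 11 of 11 lay above CON with a median of 0.45. In colon DSSPAR against DSS, 10 of the 11 lay below DSS, with a median of -0.14. In liver DSS 1 of 10 (10%, against 4.73% of all genes), Bag3, was at least 2-fold higher (2.28-fold), with a median of 0.10 and 6 of 10 above CON. The members' median in the same comparisons was 0.29, -0.02 and 0.45.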

How the data were processed

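The authors deposited linear intensities, a value for each probe set of each array, made with MAS5 per the submitters' processing notes. The MAS5 version was not given in the sources used here, nor was the target of its scaling. Their scaling was kept. Of 45101 probe sets, 34958 had 1 gene symbol in the platform annotation, 932 had several and 9211 were not listed. The members and the gene lists were chosen by function with earlier results of these data known. With 1 array per group no test was run, and members were counted past 2-fold and past 1.5-fold beside all genes. Any member could be named. Values on all 3 arrays are given for members past 2-fold, for the largest ratio of other role groups, and for some further members that were chosen after their values were seen. From each other list up to 6 genes past 2-fold are named per comparison. Alternatives were the floor, the centring, quantile normalization, the mean over probe sets, the omission of shared probe sets (identifiers marking probes common to several transcripts), and the 1.5-fold threshold. Precision is limited by the number of arrays. The tools were pandas 2.3.3 and NumPy 2.4.6 in Python 3.11.15, with matplotlib 3.10.9 for plots.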

Additional observations from a re-analysis of the deposited data

How the results depend on the processing

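No member named past 2-fold changed sign under any alternative that gave it a value (Derl3 and Trib3 have shared probe sets alone, and Trib3 lay under the higher floor), and of 92 values of such members 80 stayed past 2-fold. The other 12, and 1 that stayed past 2-fold but moved, were: Derl3 in liver with the higher floor (0.82 in DSS and 1.09 in DSSPAR against CON), Dnajb11 (0.96) and Manf (0.98 in DSS, 0.92 in DSSPAR) in colon with quantile normalization, Pdia4 in liver DSS with the mean over probe sets (0.92), Sel1l in liver DSSPAR with centring above the floor (0.94), quantile normalization (0.97) and the mean (0.56), and Trib3 against DSS with centring on medians (-0.89), quantile normalization (-0.95) and the mean (-0.38), and against CON with the mean (-0.72). The causes were not tested.

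For the members as a group, the count at least 2-fold higher in colon was 2 with quantile normalization in DSS, and in DSSPAR against CON 6 with centring on medians and 1 with quantile normalization. The count lower was 1 in colon DSS with no floor (Trib3, which then keeps its value under the floor). In liver DSSPAR against DSS the count lower was 0 with the higher floor, centring on medians, quantile normalization, the mean over probe sets and without shared probe sets, and against CON it was 0 with the higher floor, the mean and without shared probe sets. The count higher in liver DSSPAR against CON was 7 with centring on medians. The shares of all genes moved with the settings too. Centring on medians put 7.50% (colon) and 7.94% (liver) of genes higher in DSSPAR against CON. Quantile normalization put 5.27% higher in colon DSS and 4.06% in colon DSSPAR against CON. With no floor 9.45% of genes were lower in colon DSS. At 1.5-fold the members higher were 10 (DSS) and 9 (DSSPAR against CON) in colon and 12, 2 (DSSPAR against DSS) and 12 in liver, with 5 lower in liver DSSPAR against DSS.

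Centring on medians, which differ by 0.08 to 0.31 between arrays of a tissue, moved the members' median log2 ratio most: to 0.18 (DSSPAR against DSS) and 0.63 (DSSPAR against CON) in colon and to 0.60, 0.12 and 0.56 in the 3 liver comparisons. In colon the median in DSSPAR was -0.15 against DSS with the mean over probe sets, and against CON 0.17 with the mean and 0.21 with quantile normalization. In liver DSS it was 0.31 without shared probe sets.

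For the other genes of the pathway in colon, the count higher in DSS was 3 with the higher floor, quantile normalization or without shared probe sets, and the count lower 1 with quantile normalization. The count lower in DSSPAR against DSS was 0 with the higher floor, either centring or quantile normalization. Against CON the count higher in DSSPAR was 1 with the higher floor, 19 with centring on medians and 5 with centring above the floor, and the count lower 1 with no floor. The share of all genes higher there moved as well, from 3.51% to 2.85%, 7.50% and 4.08% in the same order. With no floor 10.1% of all genes were lower. In liver DSS the count higher was 2 with the higher floor and 5 without shared probe sets, and the count lower 2 with the higher floor, centring on medians or the mean. Of all genes, 3.71% and 4.58% were higher and 2.63%, 2.73% and 3.40% lower, in the same order. In liver DSSPAR against DSS the counts higher and lower were 5 and 3 with no floor and 6 and 0 with centring on medians, and the count lower was 2 with centring above the floor and 0 with quantile normalization or the mean. Of all genes there, 10.6% were higher and 14.5% lower with no floor, and 5.34% and 2.63% with centring on medians. Against CON the count higher in liver DSSPAR was 4 with the higher floor, 18 with centring on medians and 5 without shared probe sets, and the count lower 2 with no floor. Of all genes 2.36%, 7.94% and 3.35% were higher in the same order, and 16.4% were lower with no floor. Their medians with centring on medians were 0.20 and 0.51 in colon for DSSPAR against DSS and CON, and 0.33, 0.25 and 0.60 in liver. At 1.5-fold the counts higher and lower were 22 and 3, 2 and 6, and 25 and 4 in colon, and 26 and 7, 13 and 13, and 27 and 4 in liver, for DSS against CON first, then DSSPAR against DSS and last DSSPAR against CON.

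No paired analysis was possible because each group had 1 array per tissue and the labels carry no replicate numbers. Leave-one-out settings were not run for the same reason. Signal over background limits Trib3 and Chac1 in colon. The spread between mice within a pool was not measured.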
